A study of Mus musculus with 11 samples.

Results

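The liver clears ethanol with a small set of enzymes, and 10 of their genes are described here: the alcohol dehydrogenases Adh1, Adh4, Adh5 and Adh7, the aldehyde dehydrogenases Aldh2, Aldh1a1, Aldh1b1 and Aldh3a2, catalase (Cat) and the acetyl-CoA synthetase Acss2. They were taken by gene name from a count table of 55414 genes, each name matched 1 row, and all 10 passed the filter on low counts. RNA had been sequenced from 11 whole liver samples of male Clec4f-DTR mice. Kupffer cells, the resident macrophages of the liver, express Clec4f, and the strain name joins it to the diphtheria toxin (DT) receptor, through which DT kills cells that carry it. There were 4 DT livers (western diet with alcohol, WDA, plus serial DT injections), 4 saline livers (WDA plus serial saline injections) and 3 chow livers. All groups shared the Clec4f-DTR genotype, and feeding began at 8 weeks of age and lasted 16 weeks. No injection is named for chow mice, so diet and injection cannot be told apart in comparisons with chow, and no group had DT without the receptor. No group had western diet without alcohol or alcohol with chow, so western diet and alcohol cannot be told apart. The labels do not say whether a sample was 1 animal or a pool, so p-values measure only the spread between these samples.

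Ethanol is oxidised to acetaldehyde mainly by cytosolic alcohol dehydrogenase, with smaller shares through the microsomal cytochrome CYP2E1 and peroxisomal catalase. Acetaldehyde, which is toxic, is oxidised to acetate chiefly by mitochondrial ALDH2. Acetate can be joined to coenzyme A by acetyl-CoA synthetases or exported. Most of these enzymes are made in hepatocytes, and the dehydrogenase steps reduce NAD+ to NADH.

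Totals ran from 43995217 to 58089531 counts per library. Levels are given as CPM (the count scaled to library size) after TMM normalisation, a scaling that assumes most genes do not change, as mean ± SD between livers. The words rose, fell and changed are used where the Benjamini-Hochberg adjusted p of edgeR's quasi-likelihood test, over 17038 genes, was below 0.05. Clec4f was at 6.18 to 15.2 CPM in DT livers, against 43.1 to 49.1 CPM in saline and 37.1 to 50.3 CPM in chow livers. The 6 Kupffer cell markers summed to 155, 184, 132 and 111 CPM in DT livers 1 to 4, against 265 to 370 CPM in saline livers. Timd4, 1 of them, was at most 0.749 CPM in any DT liver and at least 7.68 CPM in saline livers. These markers were thus low in DT liver 2 too. Over the 500 genes of highest variance, scores on principal component 1 set apart DT livers 1, 3 and 4 (62.5 to 71.8), while DT liver 2 (-14.2) lay within the range of the other livers (-34.6 to -10.3). Counts of called genes that move without this liver are therefore also given without it. DT liver 2 was picked out by these same expression values, as the DT liver nearest the other groups. Leaving it out thus favours larger differences, and values without it are descriptions, not added support. TMM factors were 1.23 to 1.30 in DT livers 1, 3 and 4 and 0.853 to 0.972 in the other livers. Scaling to total counts raised the median log2 fold change of all genes to 0.36 for DT against saline livers, against 0.02 with TMM, and to 0.13 for saline and 0.44 for DT against chow livers, against 0.00 and -0.02 with TMM, and the changes below are relative to the TMM scale.

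In DT against saline livers 6 of the 10 genes changed, against 21.9% of all genes tested. Aldh1b1, which encodes a mitochondrial relative of ALDH2, rose, while Adh1, Adh4, Aldh3a2, Cat and Acss2 fell. In saline against chow livers Aldh3a2, the fatty aldehyde dehydrogenase gene, was the only called member of the 10, and it rose. Of all genes tested 5.58% were called there. In DT against chow livers Aldh1b1 rose and Adh5, Cat and Acss2 fell, where 23% of all genes tested were called. Adh7, Aldh2 and Aldh1a1 were called in none of these 3 comparisons in the main edgeR fit. Without DT liver 2, Aldh2 and Aldh1a1 were called lower in both comparisons of DT livers. Other settings also called Aldh1a1 lower in DT against saline livers.

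The 250 bases before the annotated start of 4 of these genes are shown, because Aldh3a2, Cat and Acss2 fell in DT livers without overlap with saline livers and Aldh1b1 was the member that rose. The sequences are from RefSeq, build GRCm38.p6, read 5′ to 3′ on the gene's own strand, and capitals mark every match to the motifs searched. Aldh3a2 is from chr11:61267187-61267436 (minus strand), Cat from chr2:103485154-103485403 (minus strand), Acss2 from chr2:155517793-155518042 (plus strand) and Aldh1b1 from chr4:45798772-45799021 (plus strand).
Aldh3a2: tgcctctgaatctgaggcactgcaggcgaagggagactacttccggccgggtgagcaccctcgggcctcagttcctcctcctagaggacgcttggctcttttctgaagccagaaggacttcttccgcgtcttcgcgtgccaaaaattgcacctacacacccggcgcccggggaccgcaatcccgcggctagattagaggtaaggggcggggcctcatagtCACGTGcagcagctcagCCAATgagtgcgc
Cat: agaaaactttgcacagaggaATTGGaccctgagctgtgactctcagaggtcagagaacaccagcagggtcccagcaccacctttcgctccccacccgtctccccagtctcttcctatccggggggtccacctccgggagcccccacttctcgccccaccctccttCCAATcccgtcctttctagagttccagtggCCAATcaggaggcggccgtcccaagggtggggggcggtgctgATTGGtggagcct
Acss2: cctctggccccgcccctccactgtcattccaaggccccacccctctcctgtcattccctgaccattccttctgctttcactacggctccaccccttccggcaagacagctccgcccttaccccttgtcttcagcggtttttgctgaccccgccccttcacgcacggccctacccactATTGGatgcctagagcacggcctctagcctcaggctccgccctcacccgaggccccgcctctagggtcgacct
Aldh1b1: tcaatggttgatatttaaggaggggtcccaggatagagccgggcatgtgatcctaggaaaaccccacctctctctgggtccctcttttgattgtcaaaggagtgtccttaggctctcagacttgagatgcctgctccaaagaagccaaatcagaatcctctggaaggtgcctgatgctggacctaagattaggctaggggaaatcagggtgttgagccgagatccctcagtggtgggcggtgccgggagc
Both strands were searched for CCAAT (the NF-Y box), CACGTG (an E-box), TTGCNNAA (C/EBP), TCACNCCAC (a sterol regulatory element), and the DR1 and HNF1 motifs. The Aldh3a2 window held CACGTG from 30 to 25 bases and CCAAT from 13 to 9 bases before the start. The Cat window held CCAAT on either strand 4 times, the Acss2 window held it once, on the other strand, from 73 to 69 bases before the start, and the Aldh1b1 window held none of the 6 motifs. Of 32851 windows of this length, 33.8% held CCAAT, 6.02% CACGTG, 9.56% the C/EBP, 1.05% the sterol, 0.0335% the DR1 and 0.00913% the HNF1 letters. No motif overlapped another in these 4 windows.

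Scaled by exon length, Cat was the most abundant of the 10 transcripts and Adh7 the least in each group. Cat averaged 767 ± 244 CPM per kb in DT livers, 1303 ± 55.8 in saline livers (SD, n = 4 each) and 1491 ± 31.4 in chow livers (SD, n = 3). Next came Adh1 at 466 ± 143, 783 ± 129 and 602 ± 79.9 CPM per kb, and Aldh2 at 419 ± 147, 546 ± 6.18 and 475 ± 25.8 CPM per kb in DT, saline and chow livers. Among chow livers no neighbours in the order of the 10 genes overlapped (Cat, Adh1, Aldh2, Aldh1a1, Aldh3a2, Adh5, Adh4, Aldh1b1, Acss2, Adh7). In saline livers Adh4 and Adh5 overlapped, and Adh4 had the higher mean. Aldh1b1 was the fifth in DT livers, against the eighth in saline and chow livers, at 79.9 ± 44.7 CPM per kb (SD, n = 4) in DT livers, where it overlapped both its neighbours, Aldh1a1 and Aldh3a2. Exon lengths came from a union of annotated exons of an earlier mouse build and are approximate. The order depends on them. By CPM alone Aldh2 had a higher mean than Adh1 in each group (2437 against 1343 CPM in chow livers). In DT livers it also had a higher mean than Cat (2146 against 2005 CPM). Exons of Acss2 overlap genes on the other strand (Gss by 395, Acss2os by 335 and Ggt7 by 197 bases), and those of Adh1, Adh7 and Aldh2 overlap non-coding genes by 108 to 136 bases. Whether reads were assigned by strand is not known, since the strand setting is not given.

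**Figure D1:**
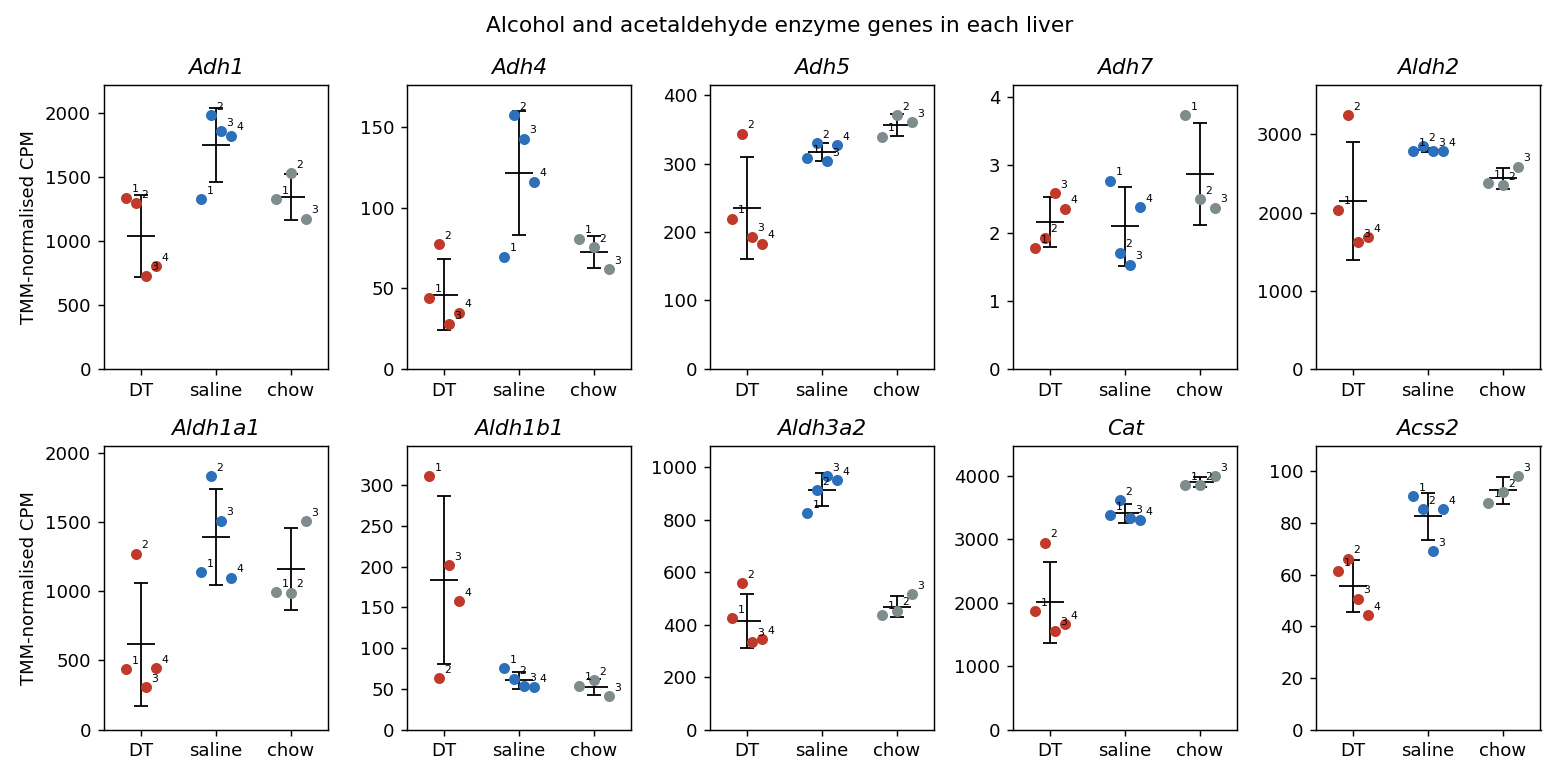
Level of each of the 10 genes in each liver, in TMM-normalised CPM (linear axes from 0), for DT, saline and chow livers; small digits are replicate numbers, long horizontal marks the group means and bars the SD (n = 4, 4 and 3). Aldh3a2, Cat and Acss2 lie lower in every DT liver than in every saline liver, and Aldh1b1 is at 158 to 311 CPM in DT livers 1, 3 and 4 but at 63.4 CPM in DT liver 2.

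The question of the DT and saline comparison was what removal of Clec4f-positive cells changes on the same diet. Of the 10 genes, 1 rose and 5 fell. Over all genes tested 14.3% rose and 7.62% fell, 21.9% in all. The median log2 fold change was -0.66 over the 10 genes and 0.02 over all genes. Without DT liver 2, 1 rose and 8 fell, since Adh5, Aldh2 and Aldh1a1 were then called too. Over all genes that refit called 6824, against 3734 with all livers. Counts below without DT liver 2 thus stand beside more calls over all genes. Whole liver RNA cannot tell fewer cells of a type from less RNA per cell.

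Among the alcohol dehydrogenases, Adh1 (class I, the main ethanol-oxidising enzyme of the liver) stood at 1338, 1294, 729 and 802 CPM in DT livers 1 to 4, against 1327, 1982, 1860.1 and 1824 CPM in saline livers 1 to 4. DT livers 3 and 4 were lowest, and saline liver 1 lay among the DT livers, so the groups overlapped. Its log2 fold change was -0.75 (SE 0.22, adjusted p = 0.0357). The call ended without chow liver 1, saline livers 2, 3 or 4, or DT livers 3 or 4 (adjusted p = 0.0532, 0.0961, 0.0768, 0.0828, 0.106 and 0.112), when chow livers were left out of the fit (adjusted p = 0.071) and when libraries were scaled to total counts (-0.44, adjusted p = 0.0944). Adh4 (class II, active at high ethanol concentrations) fell further. It stood at 44.3, 77.4, 27.7 and 34.9 CPM in DT livers 1 to 4, against 69.5, 157, 143 and 116 CPM in saline livers 1 to 4. Only DT liver 2 reached above the lowest saline liver, saline liver 1. The log2 fold change of Adh4 was -1.40 (SE 0.32, adjusted p = 0.0126), called in all 20 refits with another setting or without a liver.

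Adh5 (class III, which oxidises glutathione-bound formaldehyde and has little activity on ethanol) stood at 219, 343, 193 and 183 CPM in DT livers 1 to 4, against 308, 329.8, 303 and 327 CPM in saline livers 1 to 4. DT livers 1, 3 and 4 were below each saline liver and DT liver 2 above them all. The log2 fold change was -0.43 (SE 0.18, adjusted p = 0.104), and -0.67 without DT liver 2 (adjusted p = 0.000389). Adh7 (class IV, an enzyme of stomach epithelium that also oxidises retinol) was the least abundant of the 10. It stood at 1.78, 1.94, 2.58 and 2.36 CPM in DT livers 1 to 4, against 2.77, 1.71, 1.54 and 2.38 CPM in saline livers 1 to 4. The groups overlapped throughout, with a log2 fold change of 0.04 (SE 0.26, adjusted p = 0.916). Of 4 gastric or squamous epithelium markers, Tff1, Gkn1 and Krt13 were at 0 in all 11 livers, and Krt5 had 2 counts in 1 liver.

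Among the aldehyde dehydrogenases, Aldh2 stood at 2037, 3244, 1618 and 1683 CPM in DT livers 1 to 4, against 2787, 2848, 2782 and 2785 CPM in saline livers 1 to 4. The saline livers were nearly equal, while DT livers 1, 3 and 4 lay below them and DT liver 2 above. Its log2 fold change was -0.38 (SE 0.21, adjusted p = 0.202), and -0.65 without DT liver 2 (adjusted p = 0.00155). Aldh1a1, a cytosolic enzyme of retinal and acetaldehyde oxidation, was likewise highest among DT livers in liver 2. It stood at 436, 1271, 308 and 446 CPM in DT livers 1 to 4, against 1135, 1831, 1509 and 1096 CPM in saline livers 1 to 4. DT liver 2 lay within the saline range, and the other DT livers were far below the lowest saline liver. The log2 fold change was -1.18 (SE 0.39, adjusted p = 0.0521) and -1.81 without DT liver 2 (adjusted p = 0.000183). Total count scaling, DESeq2 and limma-voom also called it lower (adjusted p = 0.0459, 0.0122 and 0.0411). Reads shared with the close relative Aldh1a7 could not be separated. Aldh1a7 was at 172 ± 34.5 CPM in DT and 205 ± 55.5 CPM in saline livers (SD, n = 4 each).

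Aldh3a2, whose enzyme of the endoplasmic reticulum oxidises long-chain fatty aldehydes, had the smallest p of the 10 genes. It stood at 425, 557, 334 and 345 CPM in DT livers 1 to 4, against 825, 913, 966 and 951 CPM in saline livers 1 to 4. Every DT liver, liver 2 included, was below every saline liver. The fall was -1.14 on the log2 scale (SE 0.17, adjusted p = 0.00433), a ratio of 0.455, and it was called in all 20 refits.

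Aldh1b1 stood at 311, 63.4, 202 and 158 CPM in DT livers 1 to 4, against 75.3, 61.7, 53.0 and 52.1 CPM in saline livers 1 to 4. DT livers 1, 3 and 4 were above every saline liver, and DT liver 2 lay among them. The rise was 1.60 on the log2 scale (SE 0.36, adjusted p = 0.0129), a ratio of 3.03. It was called in all 20 refits, with an adjusted p of at most 0.0438, and was 1.89 without DT liver 2. Bile duct markers moved in the same livers: their 5 genes (Krt19, Krt7, Epcam, Sox9 and Spp1) summed to 344, 27.8, 221 and 395 CPM in DT livers 1 to 4, against 19.9 to 45.2 CPM in saline livers, and all 5 rose. Limma-voom called 3 of these 5 higher. The 6 stellate cell and fibroblast markers summed to 83.5 to 354 CPM in DT livers, against 53.1 to 113 CPM in saline livers, and 5 of the 6 rose. The part of either in the rise of Aldh1b1 was not tested.

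**Figure D2:**
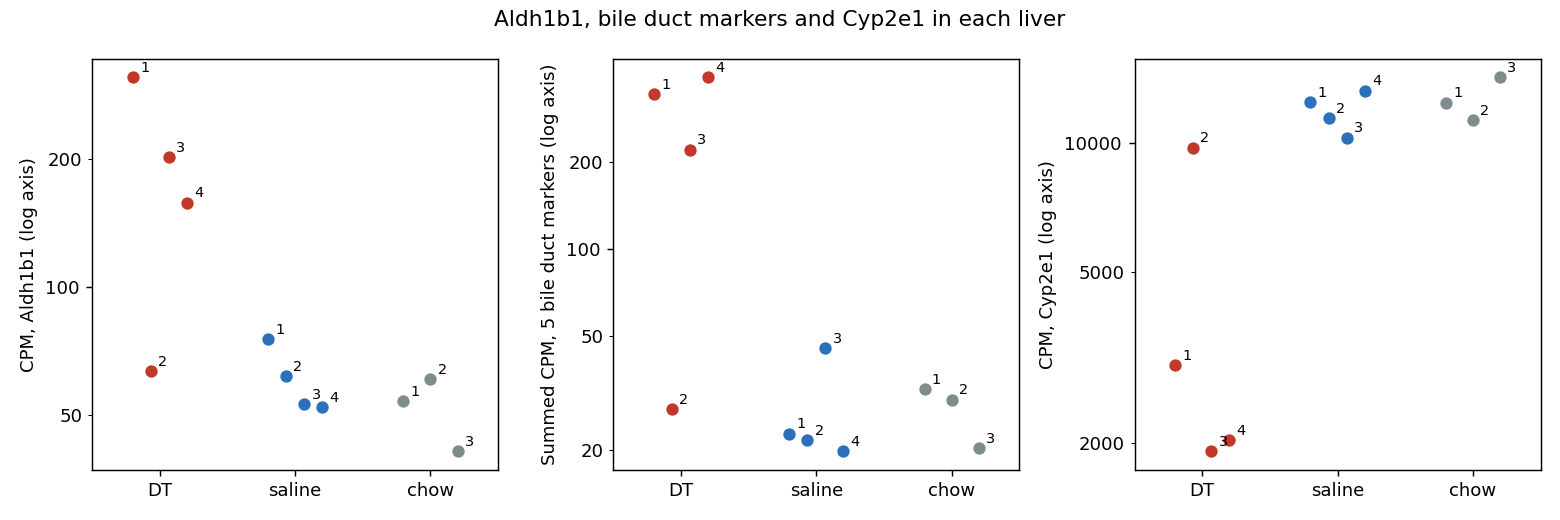
Aldh1b1 (left), the sum of 5 bile duct markers (middle) and Cyp2e1 (right) in each liver, in TMM-normalised CPM on log axes, for DT, saline and chow livers; points are livers and digits replicate numbers. DT livers 1, 3 and 4 are high in Aldh1b1 and bile duct markers and low in Cyp2e1, and DT liver 2 lies near the saline livers in each panel.

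As a share of the 4 aldehyde dehydrogenase transcripts per kb of exon, Aldh1b1 made up 19.4%, 2.71%, 16.7% and 12.5% in DT livers 1 to 4, against 2.21% to 3.44% among saline livers and 1.95% to 3.45% among chow livers. Its exon length was 2298 bases, against 4937 to 5619 bases for Aldh1a1, Aldh2 and Aldh3a2. Without scaling by length its share of CPM was lower in every liver. Aldh2 made up 57.0% to 62.2% in DT livers, 49.8% to 57.0% in saline livers and 54.9% to 60.5% in chow livers, so it stayed the most abundant of the 4 in all 11. The summed level of the 4 was 525 to 697 CPM per kb in DT livers 1, 3 and 4 and 1017 CPM per kb in DT liver 2, against 953 to 1116 CPM per kb in saline livers and 765 to 920 CPM per kb in chow livers. Adh1 made up 83.1% to 89.3% of the 4 alcohol dehydrogenase transcripts in DT livers, 83.9% to 85.3% in saline livers and 82.7% to 85.0% in chow livers.

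**Figure D3:**
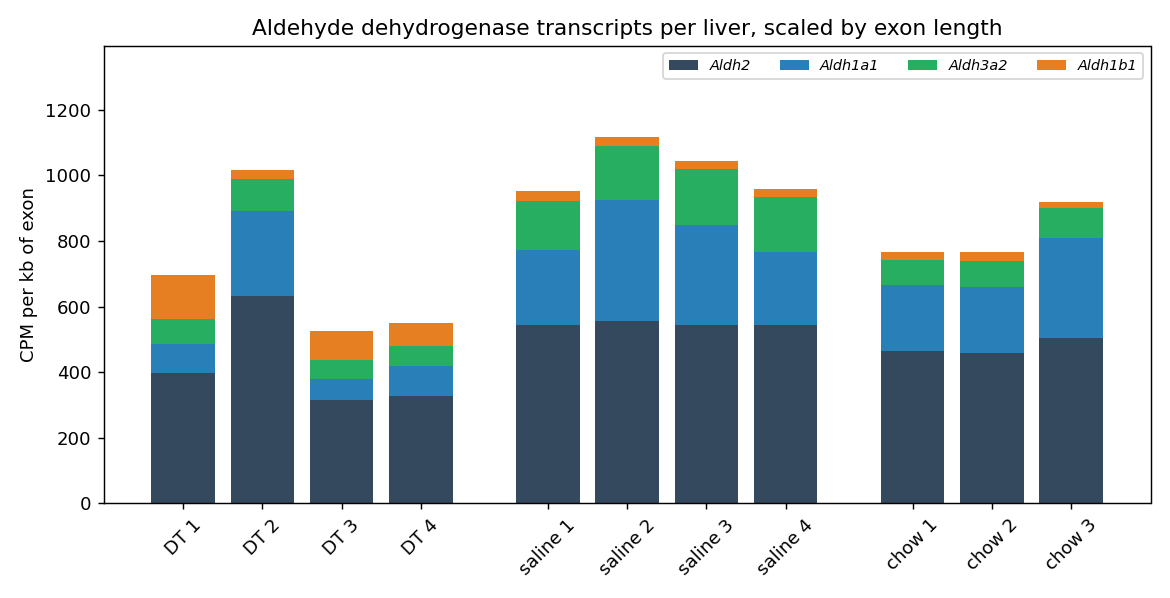
Stacked bars of Aldh2, Aldh1a1, Aldh3a2 and Aldh1b1 in each liver, in TMM-normalised CPM per kb of exon, with DT livers on the left, saline livers in the middle and chow livers on the right. Bars of DT livers 1, 3 and 4 reach 525 to 697 CPM per kb and hold 12.5% to 19.4% Aldh1b1, against at most 3.45% in the other 8 livers.

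Catalase, which breaks down hydrogen peroxide in peroxisomes and can use it to oxidise ethanol, stood at 1863, 2941, 1559 and 1657 CPM in DT livers 1 to 4, against 3377, 3617, 3328 and 3294 CPM in saline livers 1 to 4. All DT livers were below all saline livers, DT liver 2 least so. The log2 fold change of Cat was -0.76 (SE 0.20, adjusted p = 0.0205), and the call ended without saline liver 2 or DT livers 3 or 4 (adjusted p = 0.059, 0.0603 and 0.0617). Acss2, the cytosolic and nuclear acetyl-CoA synthetase, stood at 61.3, 66.2, 50.7 and 44.3 CPM in DT livers 1 to 4, against 90.3, 85.3, 69.2 and 85.4 CPM in saline livers 1 to 4. The highest DT liver was just below the lowest saline liver, saline liver 3. Its log2 fold change was -0.57 (SE 0.14, adjusted p = 0.0153), and the call ended without DT liver 3 (adjusted p = 0.0536) or with scaling to total counts (-0.25, adjusted p = 0.0873). In all, 3 of the 10 genes did not overlap between DT and saline livers, against 19.3% of all genes tested.

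Hepatocyte markers stood beside these falls as follows. The 8 markers summed to 64553 to 91970 CPM in DT livers, against 90224 to 103754 CPM in saline livers, none rose, and Cyp2e1 fell while 7 were not called. Without DT liver 2, 3 of them fell and none rose. Alb, the most abundant of them, averaged 54135 ± 7328 CPM in DT and 62361 ± 7549 CPM in saline livers (SD, n = 4 each). Of 10 genes of hepatocytes around the central vein 3 fell and none rose (Oat, Tbx3 and Cyp2e1), and 9 fell and none rose without DT liver 2. The Oat and Tbx3 calls held in 3 and 12 of 20 refits. Of 10 genes of hepatocytes around the portal vein 3 rose (Sds, Arg1 and Ass1) and 1 fell (Otc), and 5 rose and 2 fell without DT liver 2. The calls of Arg1, Ass1 and Otc held in 12, 8 and 7 of 20 refits. The part of hepatocyte content or zonation in the falls of the 10 genes was not tested.

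Genes of neighbouring steps were read from the same fit. CYP2E1 is the main microsomal ethanol-oxidising cytochrome, and Cyp2e1 stood at 3031, 9735, 1917 and 2032 CPM in DT livers 1 to 4, against 10276 to 13220.2 CPM in saline livers. All DT livers were lower than all saline livers, and the log2 fold change was -1.50 (SE 0.45, adjusted p = 0.0367). The call held in only 1 of 11 refits without a liver, that without DT liver 2 (adjusted p = 1.34e-05), and the highest adjusted p was 0.0943, without DT liver 4. The other 5 genes of the microsomal list (Por, Cyp1a2, Cyp3a11, Cyb5a and Cyb5r3) did not pass the test, and the list's median log2 fold change was -0.53. DESeq2 called 4 of the 6 lower, and so did edgeR without DT liver 2, where Cyp1a2, Cyb5a and Cyb5r3 were lower too (adjusted p = 0.0067, 0.000121 and 0.0087). By limma-voom 2 of the 6 were lower.

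Of 19 further alcohol and aldehyde dehydrogenase or reductase genes 17 were tested, with a median log2 fold change of -0.27: 1 rose, 3 fell and 13 did not pass the test. DESeq2 called 4 higher and 3 lower, limma-voom 0 higher and 3 lower, and without DT liver 2 edgeR called 4 higher and 6 lower. Aldh5a1 (succinate semialdehyde), Aldh6a1 (methylmalonate semialdehyde) and Aldh9a1 (aminobutyraldehydes) fell by 0.67, 0.75 and 0.60 on the log2 scale (adjusted p = 0.00656, 0.0115 and 0.036). Aldh3b1, for lipid aldehydes, rose by 1.22 (adjusted p = 0.0252), to 6.28 ± 3.08 CPM in DT livers, against 2.70 ± 0.18 CPM in saline livers (SD, n = 4 each). The calls of Aldh5a1 and Aldh6a1 held in all 20 refits, those of Aldh3b1 and Aldh9a1 in 10 and 9. Adh6a and Aldh3a1 were too low to test, with at most 8 and 12 counts in a liver.

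Of 6 genes of acetate use 1 rose and 3 fell, with a median log2 fold change of -0.30. Acss1, the mitochondrial acetyl-CoA synthetase, rose by 2.19 (adjusted p = 0.0239) to 1.75 ± 1.03 CPM in DT livers, against 0.382 ± 0.206 CPM in saline livers (SD, n = 4 each). Acss2 and Acss1 thus differed in direction, but the call of Acss1 ended without saline livers 2 or 4 or DT livers 3 or 4 (adjusted p = 0.0737, 0.0695, 0.0544 and 0.0687). Slc16a7, a monocarboxylate transporter, Acot12, an acetyl-CoA hydrolase, and Acss3, a mitochondrial short-chain acyl-CoA synthetase, fell by 0.80, 0.81 and 1.10 (adjusted p = 0.0118, 0.0152 and 0.0268). The Acss3 call ended without saline livers 1, 2 or 4 or DT liver 3 (adjusted p = 0.067, 0.0628, 0.0617 and 0.0773).

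Of 12 genes that carry or use NADH-derived electrons 1 rose and 2 fell, and 1 rose and 6 fell without DT liver 2. Slc25a13, the aspartate-glutamate carrier of the malate-aspartate shuttle, and Slc25a10, the dicarboxylate carrier, fell by 0.60 and 0.59 (adjusted p = 0.0195 and 0.0217). Mdh2, mitochondrial malate dehydrogenase, rose by 0.50 (adjusted p = 0.0462), a call that was lost after correction for GC content (adjusted p = 0.642) and in 9 of 11 refits without a liver. The calls of Slc25a13 and Slc25a10 held in 7 and 6 of 11 such refits. Of 17 tested genes of peroxisomes and peroxide handling, other than Cat, 5 fell and none rose, with a median log2 fold change of -0.45, and 14 fell and none rose without DT liver 2. Among the 5 were Uox, the urate oxidase gene (-0.70, adjusted p = 0.0119), Pex13 and Pex5 of the import of peroxisomal proteins (-0.59 and -0.43, adjusted p = 0.00834 and 0.0171), and the glycolate oxidase gene Hao1 (-0.66, adjusted p = 0.046). The calls of Uox and Pex13 held in all 20 refits and those of Pex5 and Hao1 in 16 and 5. At an unadjusted p below 0.05 there were 12 lower and 0 higher, DESeq2 called 7 lower and 0 higher, and limma-voom 4 lower and 0 higher.

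Of 12 transcription factors and nuclear receptors of liver metabolism 3 fell and none rose (3 lower and 0 higher by DESeq2; 3 lower and 1 higher at an unadjusted p below 0.05), and 6 fell and 1 rose without DT liver 2. Ppara, the fatty acid receptor that controls peroxisomal genes, was at 61.9 to 102 CPM in DT livers and 235 to 297 CPM in saline livers, without overlap (-1.61, SE 0.15, adjusted p = 0.000871). Cebpa, a hepatocyte transcription factor, was at 268 to 460 CPM in DT livers, against 603 to 644 CPM in saline livers (-0.96, adjusted p = 0.00703). Rxra, the partner of PPAR-alpha, fell by 0.58 (adjusted p = 0.0218), a call lost under total count scaling (adjusted p = 0.116). Srebf1, a regulator of lipid synthesis genes, averaged 187 ± 121 CPM in DT and 313 ± 111 CPM in saline livers (SD, n = 4 each) and was not called, but was lower without DT liver 2 (-1.29, adjusted p = 0.00329). Retinol is another substrate of ADH and ALDH1A enzymes. Of 10 retinoid genes 3 rose, among them Cyp26a1 and Dhrs9 (by 1.81 and 2.15, adjusted p = 0.024 and 0.0421), and Rdh16, a retinol dehydrogenase, fell by 0.80 (adjusted p = 0.00534). Limma-voom called 1 gene of this list higher and 1 lower, and without DT liver 2 edgeR called 3 higher and 3 lower. The Rdh16 call held in all 20 refits, those of Cyp26a1 and Dhrs9 in 12 and 7.

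The saline and chow comparison asked what western diet and alcohol together, with saline injections, changed in mice that kept their Clec4f-positive cells. Of the 10 genes 1 rose and none fell, against 2.45% of all genes that rose and 3.13% that fell, 5.58% in all. DESeq2, limma-voom and an unadjusted p below 0.05 gave the same count of 1 higher and 0 lower. Aldh3a2 was at 825, 913, 966 and 951 CPM in saline livers 1 to 4, against 438, 453 and 516 CPM in chow livers 1 to 3. The lowest saline liver was well above the highest chow liver. The same saline livers entered the DT and saline comparison with the opposite sign, so this rise and the fall there are not independent. The log2 fold change was 0.96 (SE 0.19, adjusted p = 0.0131), a ratio of 1.95. The call ended without chow liver 1 or chow liver 2 (adjusted p = 0.0795 and 0.0712), while the log2 fold change stayed between 0.92 and 1.09 in all 20 refits. The 8 hepatocyte markers summed to 90224 to 103754 CPM in saline livers, against 103731 to 130325 CPM in chow livers, and 1 of the 8 fell. DESeq2, an unadjusted p below 0.05 and the edgeR fit without DT liver 2 each gave 3 lower, and limma-voom 0. None of the 5 bile duct markers was called by edgeR with all livers (1 lower by DESeq2, at an unadjusted p below 0.05 and without DT liver 2). The 6 stellate cell and fibroblast markers summed to 53.1 to 113 CPM in saline livers, against 26.5 to 37.2 CPM in chow livers, and edgeR called 1 of them (Lrat) and DESeq2 3 higher. Of 4 adipocyte markers only Cfd could be tested, and it rose, at 9.03 to 61.3 CPM in saline livers, against 0 to 0.369 CPM in chow livers (adjusted p = 0.0364). Adipoq and Plin1 averaged 0.029 and 0.032 CPM in saline livers, against 0.067 and 0.046 CPM in chow livers, and Lep was at 0 in both groups. The part of any of these cell types in the rise of Aldh3a2 was not tested.

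Adh1 and Adh4 had higher means in saline livers and were not called. Adh1 averaged 1749 ± 289 CPM in saline (SD, n = 4) and 1343 ± 178 CPM in chow livers (SD, n = 3), a log2 fold change of 0.38 (SE 0.24, adjusted p = 0.412). Adh4 averaged 121 ± 38.6 CPM in saline and 72.8 ± 9.86 CPM in chow livers (0.74, SE 0.34, adjusted p = 0.242). Saline liver 1 lay within the chow range for both genes, and saline livers 2 to 4 lay above it. Aldh2 was at 2782 to 2848 CPM in saline and 2348 to 2589 CPM in chow livers (0.20, SE 0.23, adjusted p = 0.676). Cat was at 3294 to 3617 CPM in saline and 3847 to 3991 CPM in chow livers (-0.19, SE 0.21, adjusted p = 0.663). The 2 groups did not overlap for these 2 genes, nor for Aldh3a2 and Adh5, 4 of the 10 in all, against 30.4% of all genes tested. The spread behind these p-values was estimated over all 3 groups, DT livers included. With only the 2 groups in the fit the adjusted p was 0.117 for Aldh2, 0.182 for Cat and 0.183 for Adh5. Acss2, Aldh1a1, Aldh1b1 and Adh7 had log2 fold changes of -0.17, 0.26, 0.22 and -0.45, none called (adjusted p = 0.573, 0.784, 0.801 and 0.389).

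**Figure D4:**
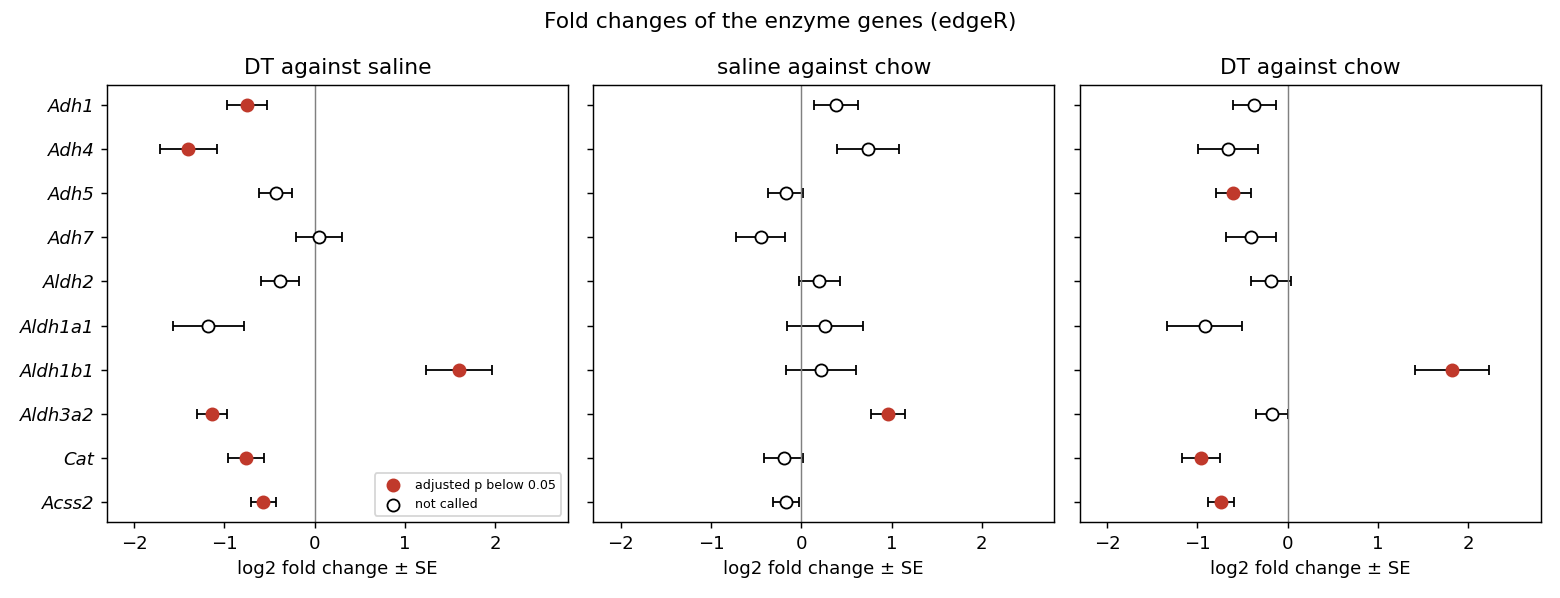
Log2 fold change with its SE for the 10 genes in DT against saline livers (left), saline against chow livers (middle) and DT against chow livers (right), from edgeR; filled points have an adjusted p below 0.05. Aldh3a2 is at -1.14, 0.96 and -0.17 in the 3 panels, and Aldh1b1 at 1.60, 0.22 and 1.82.

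Around them, none of the 17 tested further dehydrogenase genes was called in saline against chow livers (DESeq2 and limma-voom called 0, and 1 had an unadjusted p below 0.05), nor was any of the 6 microsomal or 12 NADH-related genes by edgeR. DESeq2 called 1 microsomal gene higher and 1 lower and 1 NADH-related gene lower, limma-voom called none of either list, and at an unadjusted p below 0.05 there were 2 microsomal and 3 NADH-related genes. Cyp2e1 was at 11829 ± 1275 CPM in saline (SD, n = 4) and 12618 ± 1483 CPM in chow livers (SD, n = 3). In the acetate list Acly, which makes acetyl-CoA from citrate, rose by 0.56 and Slc16a1, a monocarboxylate transporter, fell by 0.86 (adjusted p = 0.0496 and 0.0242). These calls held in 4 and 6 of 11 refits without a liver, with the highest adjusted p without chow liver 1 (0.217 and 0.131). Of the peroxisome list Uox rose by 1.04 (adjusted p = 0.00622), in all 20 refits. Among the regulators Srebf1 rose by 3.09, Ppara rose by 0.75 and Srebf2 fell by 1.00 (adjusted p = 0.00381, 0.0224 and 0.00171), and the Ppara call held in 6 of 11 refits without a liver (highest adjusted p = 0.104, without chow liver 2). With DT liver 2 left out of the fit, saline against chow livers had 1 further dehydrogenase gene higher, 1 microsomal and 1 NADH-related gene higher and 1 of each lower, and 4 regulators higher and 3 lower. Over all genes 1924 were then called, against 950 with all livers. Of the retinoid list Lrat, which stores retinol as ester, rose by 0.92 (adjusted p = 0.00487).

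In DT against chow livers, which differ in diet as well as DT, 1 of the 10 genes rose and 3 fell, against 14.8% and 8.16% of all genes, 23% in all. The comparison shares its DT livers with the first and its chow livers with the second, so its values are not independent of them. The first and the second share their saline livers, so they are not independent of each other either. Aldh1b1 was at 63.4 to 311 CPM in DT livers, against 41.2 to 60.7 CPM in chow livers, without overlap (1.82, SE 0.41, adjusted p = 0.0107), and the call was lost when chow liver 3 was left out (adjusted p = 0.0504). Cat was at 1559 to 2941 CPM in DT livers, against 3847 to 3991 CPM in chow livers (-0.96, SE 0.21, adjusted p = 0.0103), called in all 20 refits. Acss2 was at 44.3 to 66.2 CPM in DT livers, against 87.9 to 98.2 CPM in chow livers (-0.74, SE 0.15, adjusted p = 0.007), and the call was lost with total count scaling (-0.29, adjusted p = 0.0592). The groups did not overlap for these 3 genes, against 29.2% of all genes tested.

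Adh5 was at 183 to 343 CPM in DT livers, against 339 to 370.4 CPM in chow livers, with a log2 fold change of -0.60 (SE 0.19, adjusted p = 0.0438). That call held in only 1 of 11 refits without a liver, the one without DT liver 2 (adjusted p = 0.000125), with an adjusted p of 0.0603 to 0.125 in the other 10. Aldh3a2 averaged 416 ± 103 CPM in DT livers (SD, n = 4) and 469 ± 41.7 CPM in chow livers (SD, n = 3), a log2 fold change of -0.17 (SE 0.18, adjusted p = 0.508) that was positive under total count scaling (0.26). Adh1 (-0.37), Adh4 (-0.66), Aldh2 (-0.18), Aldh1a1 (-0.92) and Adh7 (-0.40) were not called. Without DT liver 2 the count was 1 higher and 6 lower, Adh4, Aldh2 and Aldh1a1 being lower too (adjusted p = 0.014, 0.0152 and 0.000558). Calls over all genes were then 6834, against 3919 with all livers.

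In the other lists of this comparison, 3 of the 17 tested further dehydrogenase genes rose and 4 fell, with a median log2 fold change of -0.06, and 4 rose and 6 fell without DT liver 2. By limma-voom 1 was higher and 4 were lower. Those called with the smallest p were Aldh18a1, of proline synthesis (1.92, adjusted p = 0.00843), Aldh9a1 (-0.80, adjusted p = 0.0143) and Aldh6a1 (-0.71, adjusted p = 0.0152). Of the 6 microsomal genes Cyp3a11, a drug-metabolising cytochrome, and Cyp2e1 fell by 0.94 and 1.59 (adjusted p = 0.00549 and 0.0345), and 4 of the 6 fell without DT liver 2. Of the 6 acetate genes Acot12 fell by 1.31 and Slc16a1 by 0.62, while Acly and Acss1 rose by 0.77 and 2.73 (adjusted p = 0.00353, 0.0382, 0.0068 and 0.0173), and 2 rose and 4 fell without DT liver 2. By limma-voom 1 acetate gene was higher and 1 lower. Of the 12 NADH-related genes Slc25a13 and Ldha, a lactate dehydrogenase subunit, fell by 0.92 and 0.52 (adjusted p = 0.00512 and 0.0409), and 1 rose and 4 fell without DT liver 2. The Cyp2e1, Slc16a1 and Ldha calls held in 5, 3 and 2 of 11 refits without a liver.

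Of the 17 peroxisome genes tested 6 fell and none rose (9 lower and 0 higher at an unadjusted p below 0.05, and 6 lower and 0 higher by DESeq2), among them Pex13 (-0.55, adjusted p = 0.0109) and Pex16 (-0.81, adjusted p = 0.0198). Without DT liver 2, 13 fell and none rose. The Pex16 call held in 6 of 11 refits without a liver. Of the 12 regulators 2 rose and 4 fell, led by Srebf2 (-0.72, adjusted p = 0.00491), Srebf1 (2.35, adjusted p = 0.00568) and Ppara (-0.86, adjusted p = 0.00568), and 2 rose and 7 fell without DT liver 2. Of the 10 retinoid genes 3 rose and 2 fell, and 4 rose and 2 fell without DT liver 2, while limma-voom called 1 higher and 2 lower. Lrat and Cyp26a1 rose by 0.78 and 2.60 (adjusted p = 0.00526 and 0.0101), and Rdh16 and Rbp4, the plasma retinol carrier, fell by 0.97 and 1.11 (adjusted p = 0.00294 and 0.0105). Beside these values, 3 of 8 hepatocyte markers fell in DT against chow livers, and 4 without DT liver 2. Of the 5 bile duct markers 4 rose, and all 5 without DT liver 2, while limma-voom called 1 of them higher. All 6 stellate cell and fibroblast markers rose, and the part of these cell types was not tested.

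Genes with the most similar course to Adh1 and Aldh2 over the 11 livers were named by the root mean square difference of log2 CPM after each gene's mean was removed. For Adh1, whose SD over the livers was 0.46 log2 units, they were Ncald, Bdh1, an enzyme of ketone body metabolism, and Depdc7, each at 0.16. For Aldh2, with an SD of 0.32, they were Msra, a methionine sulfoxide reductase, at 0.056, Txn1, thioredoxin, at 0.079, and Gtf2h5 at 0.082.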

How the data were processed

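RNA was sequenced from 11 mouse livers. The deposited values are raw counts per gene from the authors, 1 column per library and 55414 rows. Per the submitters' processing notes, FastQC, STAR, featureCounts and the build GRCm39 were used; versions, annotation, strand setting and the handling of mates are not given in the sources used here. The labels' extraction text describes CD45-positive cells, whereas the sample labels name whole liver. Between 76.6% and 81.5% of counts from 1 to 20 were even, as counting both mates would give, so halved counts were tried. A count of 3 corresponds to 0.0398 to 0.0773 CPM, and this floor and the p-values cover counting error and the spread between these livers only.

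Of 28842 genes with any count, edgeR's filterByExpr kept 17038. TMM factors and edgeR's quasi-likelihood test (edgeR 4.0.16, limma 3.58.1, R 4.3.3) were used with 1 mean per group, all 11 libraries in 1 fit, 8 residual degrees of freedom, robust estimates and two-sided tests, with Benjamini-Hochberg adjustment within each comparison. Log2 fold changes and their SE come from this fit. Log2 CPM for the principal components and the similarity search used a prior count of 2, and that search took genes with a symbol and a mean of at least 2. Alternatives were RLE factors, total count scaling, DESeq2 1.42.0, limma-voom, no filter, only the compared groups, the replicate number as a block, halved counts and each of the 11 libraries left out; correction for GC content (loess, span 0.3) was added after seeing the data, which gives 20 refits. No library was a copy of another. The genes and lists were chosen with earlier results of these data known, so their counts are descriptions. All 10 members are named; of each other list, up to 3 called genes with the smallest p, and all called genes where 5 or fewer were called; Srebf1, Cyp2e1 and Alb values, and the Aldh1a7 level, are given beside results they touch. Some genes of the lists are counted but not reported here by name. Exon lengths, GC content (known for 99.7% of tested genes) and overlaps came from GENCODE M21 on GRCm38, matched by Ensembl identifier. Of the 10 genes, 9 had a promoter sequence in the RefSeq table.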

Additional observations from a re-analysis of the deposited data

Results flagged for a closer look

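Of 20 sets of 4 livers tested (10 genes in DT and in saline livers), 2 had a liver farther from the others than Dixon's test allows, and chance gives about 1 in 20. Aldh1a1 was at 1271 CPM in DT liver 2, against 308 to 446 CPM in the other DT livers. Aldh2 was at 2848 CPM in saline liver 2, against 2782 to 2787 CPM in the other saline livers, which differ little.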

How the results depend on the processing

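Over the 30 fold changes of the 10 genes and 20 alternatives, 552 of 600 values kept their direction and side of the threshold, 31 lost a call, 10 gained one and 7 reversed. The reversed values were not called as reported: under total count scaling Adh1, Adh7, Aldh2 and Aldh3a2 were at 0.069, 0.068, 0.23 and 0.26 in DT against chow livers, and Adh7 in DT against saline livers ran from -0.093 to 0.21 when 1 library was left out. Counts of called members were 3 to 9 for DT against saline, 0 to 1 for saline against chow and 2 to 7 for DT against chow livers when 1 library was left out, and 2 for DT against chow livers under total count scaling (6, 1 and 4 as reported). Without DT liver 3 the first was 3, and without DT liver 2 it was 9.

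Over all genes, called counts were 3734, 950 and 3919 in that order. They ran from 1786 to 6824, 287 to 1924 and 1786 to 6834 without 1 library, and without DT liver 2 they were 6824, 1924 and 6834. Total count scaling gave 5629 and 6536 in the comparisons of DT livers, only the compared groups 2303, 3105 and 2089, and DESeq2 1739 for saline against chow livers. Of called genes 65.2%, 43.9% and 64.5% were higher, against 92.1%, 67.0% and 94.8% under total count scaling, and 37.4% and 38.1% for the DT comparisons after GC correction. The replicate number as a block gave 559 and 2210 calls for saline and DT against chow livers. The labels give the numbers no meaning, and correlations of same-numbered deviations ran from -0.16 to 0.18, so they were not treated as pairs. With the block, 7, 1 and 3 members were called. The cause of these shifts was not tested. The filter on low counts kept Adh6a and Aldh3a1, at 12 counts or fewer, out of the tests.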
